A study of Homo sapiens with 6 samples.

Results

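The translation initiation and elongation factors are the proteins that bring ribosomes to mRNA, start them at the right codon and move them along the message. They were taken as the protein-coding genes whose names begin with EIF1 to EIF6 or with EEF1 or EEF2 and whose mean over the 6 libraries was at least 0.5 FPKM (fragments per kilobase of exon per 1000000 reads). Of 58735 annotated genes, 210 had such a name, 71 of them coded for protein, and 65 of these reached the minimum and made up the set. The 139 other rows were mostly processed pseudogenes. The 6 coding genes below the minimum were EIF4E3, EIF4E1B, EIF1AY, EEF1G and the read-through genes EEF1E1-BLOC1S5 and EEF1AKMT4-ECE2.

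The data came from MDA-MB-231, a human breast cancer line that lacks oestrogen, progesterone and HER2 receptors. Poly(A) RNA was sequenced from 3 libraries of cells with empty lentiviral vector (Vector) and 3 of cells with a lentivirus that overexpresses cannabinoid receptor type 1, encoded by CNR1 (CB1). The overexpressing line was made by stable transduction with a pCDH plasmid. In its account of shRNA lentivirus infection, the paper reports puromycin selection and a screen of pooled clones for proteins that include CB1. Whether that covers both sequenced lines is not plainly stated. In the labels, the treatment entry reads DMSO for Vector and CB1 for the overexpressing cells, which leaves it unstated if vehicle was given to both. Nothing states that libraries came from separate cultures, so p-values measure the spread between these libraries, which may be technical, and the receptor cannot be told apart from any other difference between the 2 lines. CNR1 had 4 to 7 counts in the Vector libraries and 6465 to 7703 in the CB1 libraries.

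Libraries held 16957881 to 18833661 counts. The line markers VIM, CD44 and EGFR were present in every library (15.5 to 464 FPKM), whereas ESR1 and PGR did not exceed 0.0556 FPKM. A list of 6 genes that mark human embryonic kidney lines summed to 0.448 to 0.726 FPKM in Vector and to 7.67 to 11.5 FPKM in CB1. The 4 of them that reached the minimum of 0.5 FPKM (IRS4, NEFL, INA and NEFM) did so only through their CB1 values. A rise of these 4 was thus built into the filter, and no test of them is used. No gene of that list was at 0 in a CB1 library, and PAX2 was at 0 in Vector replicate 2. The part of this difference in the results below was not tested.

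As background, initiation starts when eIF2, carrying GTP and the initiator methionyl-tRNA, joins the small ribosomal subunit together with eIF1, eIF1A, eIF3 and eIF5. The eIF4F complex, made of the cap-binding protein eIF4E, the scaffold eIF4G and the helicase eIF4A, brings the mRNA, and the eIF4E-binding proteins block it. Elongation uses eEF1A to deliver aminoacyl-tRNA and eEF2 to move the ribosome by a codon. Many mRNAs of elongation factors and ribosomal proteins begin with a 5′-terminal oligopyrimidine tract (TOP), a C followed by pyrimidines, through which mTOR signalling controls their translation.

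The start regions of 7 factors with such a tract are shown because these genes share the sequence while their levels moved in both directions or stayed. Each is the RefSeq sequence (GRCh38.p14) from 10 bases before the annotated start to 20 bases from it, and the capitals mark the pyrimidine run counted from a C within 3 bases of the start. Pyrimidines that stand before that C are not marked.
EEF1A1: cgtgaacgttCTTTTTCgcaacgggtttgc
EEF2: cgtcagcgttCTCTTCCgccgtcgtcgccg
EIF3F: cttccgcCTCCTTCTTTCTCgacaagatgg
EIF3K: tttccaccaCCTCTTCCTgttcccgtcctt
EIF3D: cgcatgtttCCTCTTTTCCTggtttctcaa
EIF2S3: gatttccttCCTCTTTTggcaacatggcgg
EIF2A: cgagcggtttCTCTTTCCgggacaacatgg
They lie at chr6:73521013-73521042 (minus strand) for EEF1A1, chr19:3985444-3985473 (minus) for EEF2, chr11:7987327-7987356 (plus) for EIF3F, chr19:38619178-38619207 (plus) for EIF3K, chr22:36529147-36529176 (minus) for EIF3D, chrX:24054946-24054975 (plus) for EIF2S3 and chr3:150546777-150546806 (plus) for EIF2A.

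A promoter was found for 51 of the 65 factors, and 16 of the 51 (31.4%) had a pyrimidine run of at least 5 bases at the start. The same search matched 14.6% of 9763 tested genes and 13.0% of the 35116 promoters of the table. Of the 16, 7 rose and 1 fell in CB1 cells, with a median log2 change of 0.05 and a range from −0.33 to 0.73. Of the 35 without a run, 15 rose and 5 fell, with a median of 0.20. Over all 65 factors 41.5% rose and 10.8% fell, against 24.4% and 25.4% of all genes tested. A link of the run to the change was not tested.

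Across the whole set, 27 of 65 factors rose in CB1 cells, 7 fell and 31 did not pass the test (edgeR's quasi-likelihood test with Benjamini-Hochberg adjustment over 15289 genes, threshold 0.05). Among all 15289 genes, 24.4% rose and 25.4% fell, 49.8% in all, and among the 11706 protein-coding genes of these 27.7% rose and 30.3% fell. The share of factors called either way (52.3%) was thus near the background, while the split between directions was not even. The median log2 change was 0.20 over the 65 factors and −0.002 over all genes tested. Values of the 2 groups did not overlap for 44 factors (67.7%), 31 with all CB1 libraries higher and 13 with all lower, against 58.9% of all genes and 66.7% of protein-coding genes, so the share without overlap was near that of protein-coding genes. With library totals in place of TMM scaling, 26 rose and 15 fell. Only EEF1AKMT4 changed more than 2-fold among the factors called.

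Summed over the set, the level was 4168 to 4340 FPKM in Vector and 4647 to 5322 FPKM in CB1 libraries, so the groups did not overlap. The cytosolic ribosomal protein genes, which code for the machine these factors serve, rose in 48 of 84 cases and fell in 5, with a median log2 change of 0.38 (49 and 7 when GC content and transcript length were entered in the fit as offsets for each library). Without the offsets 57.1% thus rose and 5.95% fell, against 27.7% and 30.3% of protein-coding genes. In bulk RNA, more RNA per cell and more cells with a given RNA cannot be told apart.

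**Figure D1:**
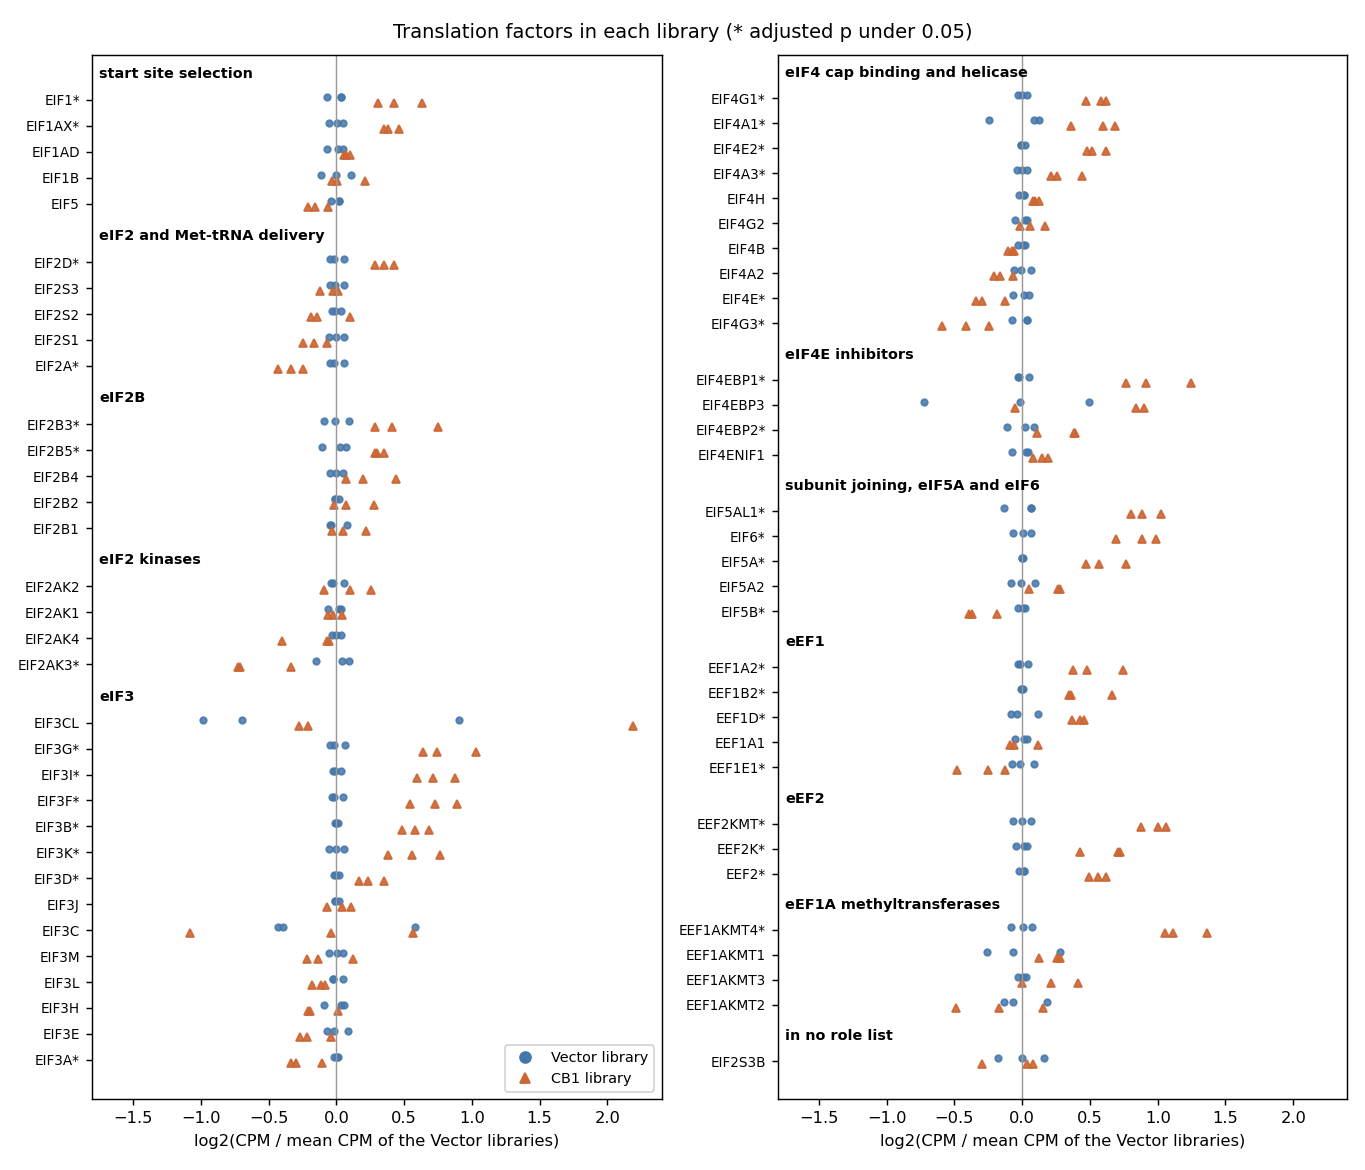
Level of each of the 65 factors in each library, as log2 of CPM over the mean of the 3 Vector libraries, in groups by role; circles are Vector libraries, triangles CB1 libraries and asterisks mark an adjusted p under 0.05. The eIF3 subunits G, I, F, B and K, the eIF4E-binding protein EIF4EBP1 and all 3 genes of the eEF2 group lie to the right with no overlap, whereas EIF3C and EIF3CL scatter widely within both groups.

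Among the factors that select the start codon, EIF1 and EIF1AX rose, and EIF1AD, EIF1B and EIF5 did not pass the test. EIF1, which keeps the scanning ribosome open until an AUG is met, was the most abundant of them. It had 337, 361 and 361 CPM (counts per 1000000 of the TMM-scaled library size) in Vector and 547, 473 and 438 CPM in CB1 libraries. Every CB1 library lay above every Vector library, and the rise was 1.38-fold (log2 change 0.46 ± 0.08, standard error (SE), n = 3 per group, adjusted p = 0.000645 by edgeR). EIF1AX, the X-linked gene of eIF1A, rose 1.32-fold (adjusted p = 0.000607 by edgeR). EIF1B, a close relative of EIF1, had 36.7 ± 2.8 CPM in Vector and 38.4 ± 3.6 in CB1 (SD, n = 3), and the share of EIF1B in the summed FPKM of the pair was 16.4 ± 0.6% in Vector and 13.0 ± 0.4% in CB1. EIF5, the GTPase-activating protein of eIF2, lay lower in all 3 CB1 libraries without passing (log2 change −0.14, adjusted p = 0.099 by edgeR).

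The 3 subunits of eIF2 itself did not pass the test. EIF2S2, its beta subunit and the most abundant of the 3, had 273, 285 and 276 CPM in Vector and 298, 244 and 252 CPM in CB1 libraries, so that the groups overlapped. EIF2S1, the alpha subunit that the stress kinases phosphorylate, had a log2 change of −0.16 (adjusted p = 0.0814), and EIF2S3, the gamma subunit, −0.05 (adjusted p = 0.624 by edgeR). The 2 factors that can bring methionyl-tRNA to ribosomes without eIF2 moved in opposite directions. EIF2A had 112, 121 and 115 CPM in Vector and 97.8, 85.9 and 92.1 CPM in CB1 libraries, a fall with no overlap (log2 change −0.33 ± 0.07 SE, adjusted p = 0.00258 by edgeR). EIF2D rose 1.28-fold (adjusted p = 0.00168 by edgeR).

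Of eIF2B, the exchange factor that recharges eIF2 with GTP, EIF2B3 (gamma) and EIF2B5 (the catalytic epsilon subunit) rose 1.41-fold and 1.24-fold. EIF2B1, EIF2B2 and EIF2B4 did not pass, with log2 changes of 0.08, 0.12 and 0.25. EIF2B1 was the most abundant per length and had 77.3, 83.9 and 77.0 CPM in Vector and 92.4, 77.8 and 82.1 CPM in CB1 libraries, which overlap.

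The 4 kinases of eIF2 alpha differ in the stress they sense. EIF2AK3 (PERK), the kinase of the endoplasmic reticulum, fell 1.49-fold and was the largest fall of the set. It had 20.0, 19.4 and 16.9 CPM in Vector and 11.4, 11.5 and 14.9 CPM in CB1 libraries (log2 change −0.58 ± 0.12 SE, adjusted p = 0.00197 by edgeR), and the groups did not overlap. EIF2AK1 (HRI), which senses haem and was the most abundant per length, had 162, 153 and 163 CPM in Vector and 164, 153 and 157 CPM in CB1 libraries. EIF2AK2 (PKR), which binds double-stranded RNA, and EIF2AK4 (GCN2), which senses uncharged tRNA, had log2 changes of 0.10 and −0.17 and did not pass. EIF2AK2 was called higher without CB1 replicate 1 (log2 change 0.18, adjusted p = 0.00611) and with offsets for GC content and transcript length (0.49, adjusted p = 5.25e-06, both by edgeR).

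Around this step, a list of 7 phosphatase subunits, partners and targets of the pathway held no gene that rose and 4 that fell (57.1%). Among protein-coding genes, 27.7% rose and 30.3% fell. DDIT3, the stress-induced transcription factor CHOP, fell from 27.5 ± 0.2 CPM to 11.1 ± 1.9 CPM (SD, n = 3, adjusted p = 3.67e-06 by edgeR). PPP1R15A (GADD34), which brings the phosphatase to eIF2 alpha, fell from 348 ± 1 to 201 ± 10 CPM (adjusted p = 3.11e-06 by edgeR). TRIB3 and IMPACT fell as well, while ATF4 stood at a log2 change of −0.03, which missed the threshold. With offsets for GC content and transcript length, 5 of the 7 fell, ATF4 among them (log2 change −0.27, adjusted p = 0.000307), and IMPACT was not called (−0.004, adjusted p = 0.975, both by edgeR).

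The eIF3 complex, the largest initiation factor and the platform that joins mRNA and ribosome, held genes called in both directions. Of 14 genes, EIF3G, EIF3I, EIF3F, EIF3B, EIF3K and EIF3D rose, EIF3A fell and 7 did not pass. Of all protein-coding genes tested, 27.7% rose and 30.3% fell, 58.0% in all, so the share called in eIF3 was not above that background. The median log2 change over the 14 was 0.14. With offsets for GC content and transcript length, 7 rose and 1 fell (EIF3L). EIF3A was not called there (log2 change 0.02, adjusted p = 0.789 by edgeR). EIF3B, EIF3G and EIF3I, which form a module of their own near the mRNA entry, all rose, and their summed level was 170 to 173 FPKM in Vector and 250 to 312 FPKM in CB1 libraries.

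EIF3I, the most abundant eIF3 gene per length, had 166, 168 and 174 CPM in Vector and 312, 279 and 256 CPM in CB1 libraries, a 1.67-fold rise (log2 change 0.74 ± 0.08 SE, adjusted p = 1.56e-05 by edgeR). EIF3G had 127, 117 and 120 CPM in Vector and 247, 203 and 189 CPM in CB1 libraries, a 1.76-fold rise (adjusted p = 2.73e-05 by edgeR). EIF3F, whose run of 13 pyrimidines was the longest of those marked in capitals, had 175, 174 and 183 CPM in Vector and 329, 293.4 and 258 CPM in CB1 libraries, a 1.66-fold rise (adjusted p = 3.05e-05 by edgeR). In all 3 genes the lowest CB1 library lay above the highest Vector library, and CB1 replicate 1 was the highest. Offsets for GC content and transcript length gave log2 changes of 0.565 for EIF3I and 0.459 for EIF3G, in place of 0.735 and 0.813. For EIF3F they gave 1.084 in place of 0.727.

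EIF3A, the large scaffold subunit, went the other way. It had 482, 491 and 490 CPM in Vector and 398, 387 and 452 CPM in CB1 libraries (log2 change −0.24 ± 0.07 SE, adjusted p = 0.0151 by edgeR). It was not called without Vector replicate 2 (adjusted p = 0.0663), Vector replicate 3 (0.066) or CB1 replicate 2 (0.0689 by edgeR). EIF3E, EIF3H, EIF3L and EIF3M had log2 changes between −0.17 and −0.07 and did not pass. EIF3C and its near-identical copy EIF3CL on chromosome 16 varied widely within both groups. EIF3C had 678, 674 and 1339 counts in Vector and 409, 909 and 1337 in CB1 libraries, and EIF3CL 39, 148 and 48 counts in Vector and 65, 67 and 358 in CB1 libraries. Only uniquely mapped reads were counted, and the sum of both genes still ran from 41.1 to 79.1 CPM in Vector and from 27.9 to 95.8 CPM in CB1 libraries.

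**Figure D2:**
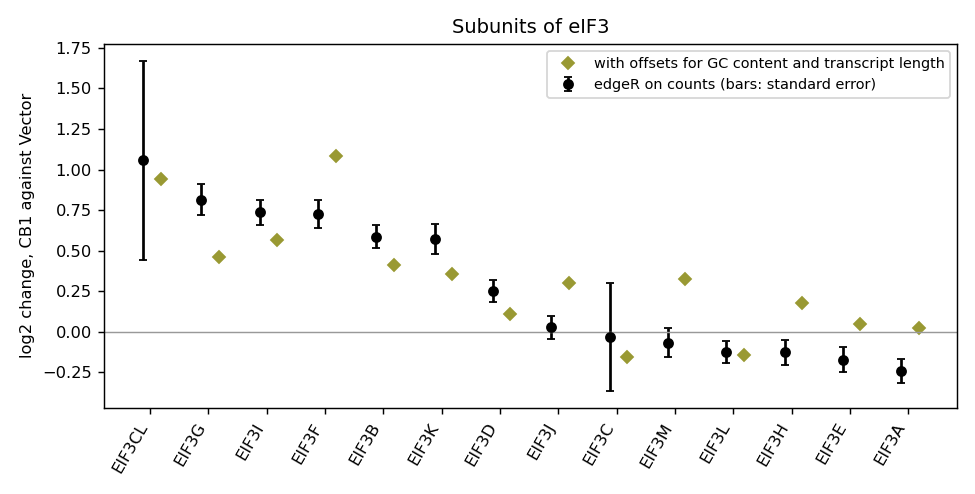
Log2 change of the 14 eIF3 genes between CB1 and Vector cells (vertical axis), 3 libraries per group; black points are the edgeR estimate with its standard error and diamonds the estimate with offsets for GC content and transcript length. EIF3G, EIF3I, EIF3F, EIF3B and EIF3K lie above 0.3 by both estimates, whereas EIF3A moves from −0.24 to 0.02 and EIF3M from −0.07 to 0.32.

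In eIF4F, paralogs of the same subunit moved in different directions. EIF4G1, the main scaffold, had 898, 878 and 919 CPM in Vector and 1243, 1380 and 1342 CPM in CB1 libraries, a 1.47-fold rise with no overlap (log2 change 0.56 ± 0.07 SE, adjusted p = 2.81e-05 by edgeR). EIF4G3, the second scaffold, had 159, 159 and 147 CPM in Vector and 103, 116 and 131 CPM in CB1 libraries, a 1.33-fold fall with no overlap (log2 change −0.41 ± 0.09 SE, adjusted p = 0.00203 by edgeR). EIF4G2 (DAP5), a relative that does not bind eIF4E, stayed within its spread at a log2 change of 0.07. In the summed FPKM of the 3 genes, EIF4G1 made up 53.0 ± 1.0% in Vector and 62.4 ± 1.3% in CB1 (SD, n = 3), and EIF4G3 7.9 ± 0.4% and 4.7 ± 0.3%.

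Of the cap-binding genes, EIF4E fell and EIF4E2 rose. EIF4E had 53.4, 57.9 and 56.5 CPM in Vector and 45.4, 44.1 and 51.3 CPM in CB1 libraries, a fall of 0.25 on the log2 scale (adjusted p = 0.0235 by edgeR). That call was lost without Vector replicate 2 (adjusted p = 0.102), Vector replicate 3 (0.0847) or CB1 replicate 2 (0.0913 by edgeR), and with offsets for GC content and transcript length the sign turned (log2 change 0.14, adjusted p = 0.22 by edgeR). EIF4E2 (4EHP), which binds the cap without recruiting eIF4G and is known as a translational repressor, had 38.4, 39.2 and 38.4 CPM in Vector and 59.3, 53.9 and 55.4 CPM in CB1 libraries, a 1.45-fold rise (adjusted p = 0.000108 by edgeR). The share of EIF4E in the summed FPKM of EIF4E, EIF4E2 and EIF4E3 was 41.2 ± 0.9% in Vector and 28.7 ± 2.0% in CB1, and the groups did not overlap. The level of EIF4E is uncertain, since a processed pseudogene of it, EIF4EP2, was also counted. EIF4EP2 had 127 to 172 counts per library and EIF4E 772 to 1031. Per length EIF4EP2 stood higher, at 12.3 FPKM against 3.69 FPKM for EIF4E, which has 14067 exonic bases.

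The helicase has the same limit. EIF4A1, as counted, had 1.97 ± 0.27 FPKM in Vector and 2.86 ± 0.32 FPKM in CB1 (SD, n = 3), far below EIF4A2 at 85.5 ± 4.0 and 76.3 ± 4.2 FPKM. Of its exonic bases, 48.6% also belonged to another annotated gene, among them SENP3-EIF4A1, and its pseudogene EIF4A1P10 stood at 8.23 FPKM. Reads that fall in both cannot be told apart. Its counts rose 1.47-fold (adjusted p = 0.00366 by edgeR). EIF4A2 showed no call at a log2 change of −0.15 (adjusted p = 0.0906 by edgeR). EIF4A3, the helicase of the exon junction complex, rose 1.24-fold. EIF4H and EIF4B, which stimulate eIF4A, had log2 changes of 0.10 and −0.08 and did not pass, and EIF4H was the most abundant gene of this role, at 201 ± 4 FPKM in Vector and 212 ± 5 FPKM in CB1.

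Of the proteins that hold eIF4E back, EIF4EBP1 and EIF4EBP2 rose. EIF4EBP1 is bound to eIF4E until mTOR phosphorylates it. It had 65.3, 65.8 and 69.3 CPM in Vector and 158, 126 and 113 CPM in CB1 libraries, a 1.98-fold rise with no overlap (log2 change 0.99 ± 0.11 SE, adjusted p = 1.75e-05 by edgeR). Its log2 change was 0.55 with offsets for GC content and transcript length (adjusted p = 3.86e-06 by edgeR). EIF4EBP2 rose 1.23-fold, with 110, 96.3 and 106 CPM in Vector and 112, 137 and 136 CPM in CB1 libraries (adjusted p = 0.0146 by edgeR), and it was not called without Vector replicate 2 (adjusted p = 0.088) or CB1 replicate 2 (0.0722 by edgeR). EIF4EBP3 was barely detected, at 0.417 and 0.635 FPKM, and shared 73.4% of its exonic bases with another gene. Per length, EIF4EBP1 made up 80.8 ± 1.0% of the 3 genes in Vector and 86.8 ± 2.9% in CB1.

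**Figure D3:**
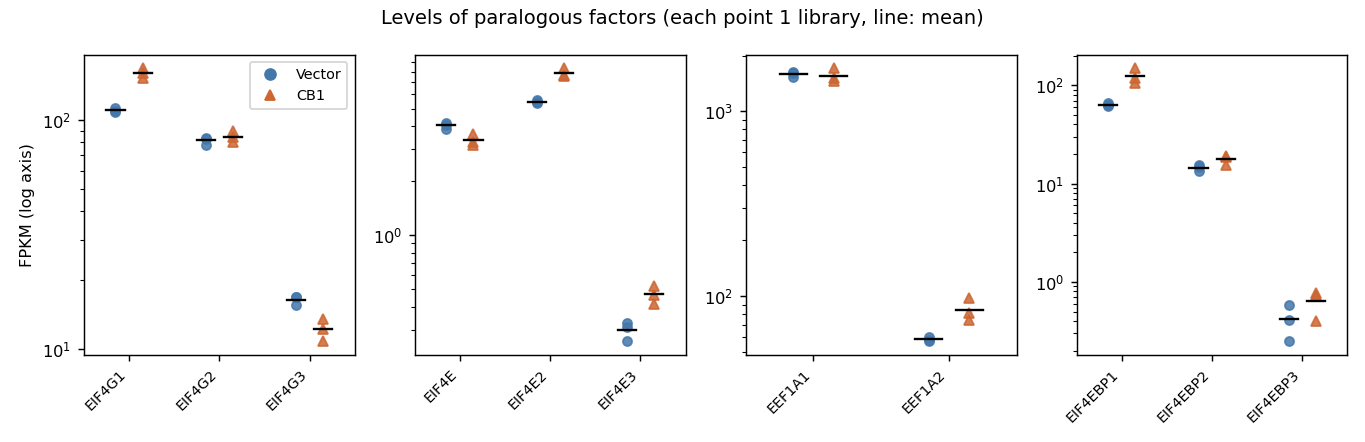
Levels of 4 families of paralogous factors in FPKM on a log axis; each point is 1 library and each line the mean of 3, with circles for Vector and triangles for CB1. EIF4G1 rises while EIF4G3 falls, EIF4E2 rises while EIF4E falls, EEF1A2 rises beside an EEF1A1 that was not called, and EIF4EBP1 and EIF4EBP2 both rise.

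In a list of 8 regulators of eIF4F and mTOR signalling, 4 rose and 2 fell, so that 75.0% were called, against 58.0% of protein-coding genes. MKNK2, a kinase of eIF4E, rose 1.77-fold, RPS6KB2 1.92-fold, LARP1, which binds TOP mRNAs, 1.49-fold, and RPTOR, the adaptor of mTOR complex 1, 1.46-fold. PDCD4, which inhibits eIF4A, fell by 0.81 and RPS6KB1 by 0.56 on the log2 scale. MTOR was not called, at a log2 change of 0.11. Of 5 genes for poly(A)-binding proteins and their partners, the poly(A)-binding proteins PABPC1 and PABPC4 rose 1.54-fold and 1.84-fold, while their partners PAIP1 and PAIP2 fell by 0.47 and 0.31 on the log2 scale. With offsets for GC content and transcript length, PAIP2 was not called (−0.06, adjusted p = 0.485 by edgeR).

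Of the factors that join the ribosomal subunits or keep them apart, EIF6 rose and EIF5B fell, the latter not with offsets for GC content and transcript length (log2 change 0.06, adjusted p = 0.293 by edgeR), where EIF6 stayed higher (0.55). EIF6, which holds the large subunit away from the small subunit, had 138, 152 and 145 CPM in Vector and 288, 267 and 234 CPM in CB1 libraries, a 1.81-fold rise (log2 change 0.86 ± 0.08 SE, adjusted p = 8.05e-06 by edgeR). EIF5B, the GTPase that joins them, had 158, 154 and 159 CPM in Vector and 120, 122 and 138 CPM in CB1 libraries, a 1.24-fold fall (log2 change −0.31 ± 0.07 SE, adjusted p = 0.00374 by edgeR). The groups did not overlap in either gene.

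EIF5A, the factor that carries the amino acid hypusine and helps ribosomes through stretches such as prolines, had 528, 525 and 525 CPM in Vector and 894, 780 and 729 CPM in CB1 libraries (1.52-fold higher, adjusted p = 5.57e-05 by edgeR). Its intronless relative EIF5AL1 had 9.45, 10.9 and 10.8 CPM in Vector and 21.1, 19.2 and 18.1 CPM in CB1 libraries, a 1.87-fold rise (adjusted p = 3.21e-05 by edgeR). Offsets for GC content and transcript length gave log2 changes of 0.32 for EIF5A and 1.03 for EIF5AL1, in place of 0.606 and 0.905. Reads shared by such near-identical copies could have been split or dropped, so the level of EIF5AL1 is uncertain. EIF5A2 made up 1.61 ± 0.10% of the FPKM of EIF5A and EIF5A2 in Vector and 1.23 ± 0.16% in CB1. Of the 2 enzymes that make hypusine, DOHH rose 1.62-fold and DHPS was not called, at a log2 change of −0.20, but was called lower with offsets for GC content and transcript length (−0.49, adjusted p = 0.0428 by edgeR).

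EEF1A1 was the most abundant gene of the set per length, at 1584 ± 54 FPKM in Vector and 1558 ± 134 FPKM in CB1 (SD, n = 3), and took 0.855% to 0.972% of all counts of a library. Its level did not move beyond the spread. It had 8970, 9522 and 9375 CPM in Vector and 10060, 8917 and 8715 CPM in CB1 libraries (log2 change −0.01 ± 0.07 SE, adjusted p = 0.921 by edgeR). EEF1A2, the form best known from neurons and muscle, had 292, 276 and 280 CPM in Vector and 474, 394 and 366 CPM in CB1 libraries, a 1.46-fold rise with no overlap (adjusted p = 0.000345 by edgeR). Its share of the pair was 3.56 ± 0.20% in Vector and 5.11 ± 0.28% in CB1. With offsets for GC content and transcript length, the log2 change of EEF1A2 was 0.15 (adjusted p = 0.0125 by edgeR) in place of 0.54.

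Of the exchange factor that recharges eEF1A, EEF1B2 and EEF1D rose 1.38-fold and 1.33-fold. EEF1D shared 34.0% of its exonic bases with other genes on the opposite strand, mainly AC067930.6, which had 12 to 22 counts per library, and was not called with offsets for GC content and transcript length (log2 change 0.11, adjusted p = 0.164 by edgeR). EEF1G, the remaining subunit, was listed at 0 counts in every library, and 99.9% of its exonic bases also belonged to the gene AP002990.1 on the same strand, which had 47 to 86 counts per library. EEF1E1, named for the complex but known as a scaffold of the tRNA synthetases, had 19.3, 20.7 and 18.5 CPM in Vector and 17.8, 14.0 and 16.4 CPM in CB1 libraries, and its fall of 0.28 on the log2 scale passed narrowly (adjusted p = 0.048 by edgeR). It stayed called only when CB1 replicate 1 was the library left out (0.00261), and the other omissions gave adjusted p from 0.0746 to 0.178 (edgeR).

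All 3 genes of the eEF2 group rose. EEF2 had 1499, 1468 and 1500 CPM in Vector and 2192, 2287 and 2099 CPM in CB1 libraries, a 1.47-fold rise (log2 change 0.56 ± 0.06 SE, adjusted p = 1.79e-05 by edgeR). EEF2K, the kinase that shuts eEF2 off, had 23.4, 24.8 and 24.4 CPM in Vector and 32.5, 40.0 and 39.5 CPM in CB1 libraries, a 1.54-fold rise (adjusted p = 0.000196 by edgeR). EEF2KMT, which methylates a lysine of eEF2, had 6.59, 6.29 and 6.90 CPM in Vector and 13.8, 12.1 and 13.2 CPM in CB1 libraries, a 1.98-fold rise (adjusted p = 3.39e-05 by edgeR). None of the 3 overlapped between the groups. DPH2, which acts with DPH1 in the first step of making the diphthamide residue of eEF2, rose 1.95-fold, while 6 of the 9 hypusine and diphthamide genes did not pass.

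Of 4 lysine methyltransferases of eEF1A, EEF1AKMT4 rose and the other 3 did not pass. EEF1AKMT4 had 2.86, 2.58 and 2.74 CPM in Vector and 7.005, 5.91 and 5.65 CPM in CB1 libraries, the largest rise of the set at 2.26-fold (log2 change 1.18 ± 0.17 SE, adjusted p = 0.00011 by edgeR). EEF1AKMT1, the most abundant of the 4 per length, had 3.44, 4.996 and 3.94 CPM in Vector and 5.004, 4.49 and 4.92 CPM in CB1 libraries and overlapped. EEF1AKMT4 shared 46.8% of its exonic bases with other genes. The read-through gene EEF1AKMT4-ECE2 on the same strand, listed at 0 counts, covered 26.3%. CAMK2N2 on the opposite strand, which rose by 0.84 (log2), covered 20.5%. EEF2KMT shared 29.2% with ALG1 on the opposite strand, which rose by 0.60. Whether counting used strand is not given, so reads of the opposite-strand pairs cannot be told apart. Strand would not separate the read-through pair.

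Outside the cytosolic factors, 4 of 9 mitochondrial translation factors fell and 1 rose, where 30.3% and 27.7% of protein-coding genes did. MTRF1, GFM2, GFM1 and MTIF2 fell by 0.77, 0.44, 0.35 and 0.32 on the log2 scale, and TUFM, the mitochondrial counterpart of eEF1A, rose 1.32-fold. With offsets for GC content and transcript length, 2 fell and 2 rose, and GFM1 (−0.09, adjusted p = 0.192) and MTIF2 (−0.12, adjusted p = 0.0819, both by edgeR) were not called. Of 7 release and recycling factors, MCTS1 rose 1.38-fold and HBS1L fell by 0.29 on the log2 scale. With the same offsets, 6 of the 7 rose and none fell, and HBS1L was not called (0.12, adjusted p = 0.209 by edgeR). Among protein-coding genes, 29.1% rose and 26.8% fell in the fit with offsets.

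Among the promoters, the E-box CACGTG, a palindrome that reads alike on both strands and binds factors such as MYC and USF, was found in 14 of 51 (27.5%), against 10.3% of tested genes and 7.26% of all promoters. The cyclic AMP response element TGACGTCA, also a palindrome, was found in 1 of 51 (EEF2), against 3.37% of tested genes and 1.85% of all promoters. Of the 14 with an E-box, 7 rose and 1 fell (median log2 change 0.40), and of the 37 without it, 15 rose and 5 fell (median 0.08). Over all 65 factors 41.5% rose and 10.8% fell, against 24.4% and 25.4% of all genes tested. The 14 include EIF4EBP3 (3 to 9 counts per library), whose mean was 0.417 FPKM in Vector and 0.635 FPKM in CB1. It thus reached the minimum of 0.5 FPKM through its CB1 values. A link of the E-box to the change was not tested. The 150 bases before the start are shown for EIF4G1, which has a pair of E-boxes, EIF3K, which has an E-box and a TOP run, and EEF2, with the motif in capitals.
EIF4G1: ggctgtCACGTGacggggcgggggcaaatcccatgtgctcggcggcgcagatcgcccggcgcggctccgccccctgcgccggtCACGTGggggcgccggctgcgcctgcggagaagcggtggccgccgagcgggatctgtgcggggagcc
EIF3K: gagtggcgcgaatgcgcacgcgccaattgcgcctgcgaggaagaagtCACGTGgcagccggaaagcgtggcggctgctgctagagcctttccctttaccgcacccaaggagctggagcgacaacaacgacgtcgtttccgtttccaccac
EEF2: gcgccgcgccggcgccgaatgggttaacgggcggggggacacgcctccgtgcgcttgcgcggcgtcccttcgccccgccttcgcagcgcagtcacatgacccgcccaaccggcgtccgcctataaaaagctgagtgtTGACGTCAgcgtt
They lie at chr3:184314456-184314605 (plus strand), chr19:38619038-38619187 (plus) and chr19:3985464-3985613 (minus) of GRCh38.p14. A match is a description of the letters and says nothing of binding.

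The change of a factor was related to the GC content of its transcript. Across the 65 factors, Spearman's rho between the log2 change and GC content of the longest protein-coding transcript was 0.68, and with transcript length −0.33, against 0.52 and −0.29 across 11703 protein-coding genes. The points share the same 6 libraries, and genes are not independent replicates. In each Vector library the deviation of a factor from its mean fell with GC (rho −0.63 to −0.60), and in each CB1 library it rose (0.48 to 0.62). That mean was taken over all 6 libraries, so opposite signs in the groups largely follow from the relation above. Protein-coding genes in the lowest of 5 equal groups by GC had a median log2 change of −0.36 and those in the highest 0.34. Within the same group, 55 of 65 factors lay above the median of protein-coding genes, among them all 15 of the lowest group.

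**Figure D4:**
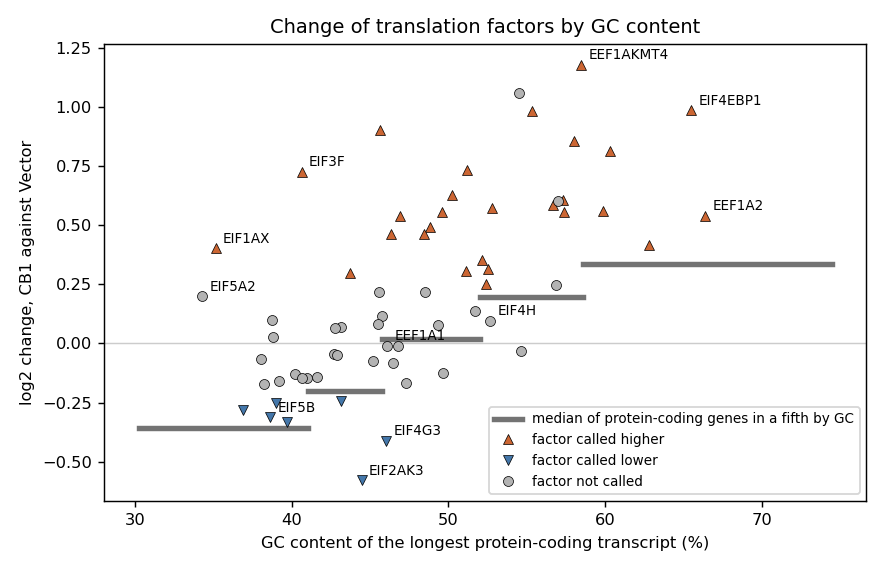
Log2 change of the 65 factors between CB1 and Vector cells (vertical axis) against GC content in percent (horizontal axis); upward triangles were called higher, downward triangles lower, circles not called, and grey bars are medians of protein-coding genes in 5 equal groups by GC. Factors called lower lie between 36.9% and 46.0% GC, and 55 of 65 factors lie above the bar of their own group.

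When GC content and transcript length were entered in the fit as offsets for each library, 34 factors rose and 3 fell. Among all 15286 genes in that fit, 25.1% rose and 22.9% fell, 48.0% in all. Of the 27 factors that rose, 25 were also called higher in that fit, EEF1D and EIF3D being the exceptions. Of the 7 that fell, only EIF2AK3 (log2 change −0.39, adjusted p = 0.00842) and EIF4G3 (−0.26, adjusted p = 0.00147, both by edgeR) were also called lower. EIF2A (−0.11), EEF1E1 (−0.06), EIF5B (0.06), EIF3A (0.02) and EIF4E (0.14) were not called. Of the factors without a call before, EIF5A2, EIF2AK2, EIF3M, EIF3J, EIF4G2, EIF2B2, EIF2S1, EIF5 and EIF2S3 were called higher there, with log2 changes from 0.62 (EIF5A2) to 0.14 (EIF2S3), and EIF3L lower (−0.14). The median over the factors was 0.20 in both fits. Whether the relation to GC arose in the cells or in the libraries was not tested.

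Within the CB1 group, replicate 1 was the highest library for 20 of the 27 factors that rose (74.1%) and for 58.3% of all genes that rose. Without it, 30 factors rose and 14 fell, with EIF2AK2, EIF3CL and EIF4G2 added to the rises and EEF1AKMT2, EIF2S1, EIF2S2, EIF3E, EIF3H, EIF3M and EIF4A2 to the falls. Calls over all 15289 genes also went up in that fit, from 7607 to 8647. The added call of EIF3CL rests on CB1 replicate 3 (358 counts, against 67 in CB1 replicate 2). Without Vector replicate 2, Vector replicate 3 or CB1 replicate 2, the number that fell was 4 each time. Calls over all genes were fewer there too, at 6151, 6181 and 6657.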

How the data were processed

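RNA of 3 Vector and 3 CB1 libraries was analysed from tables with 1 row per gene. Groups and replicate numbers came from the sample titles. HISAT2 2.0.5 and featureCounts 1.5.0-p3 are listed in the submitters' processing notes, and the study's methods describe poly(A) selection and uniquely mapped exonic reads. The deposited counts are whole reads per gene without normalization. The deposited FPKM equal the count over gene length times 1 constant per library. The totals implied by these constants (16807430 to 18124722) lay above the summed counts in the Vector libraries and below them in the CB1 libraries, so the authors' FPKM carry a scaling between libraries. Coordinates equalled GENCODE 29 on GRCh38 for 58735 of 58735 genes. Strand use in counting was not given in the sources read.

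The 15289 genes whose mean reached 0.5 FPKM were tested with edgeR 4.0.16 (quasi-likelihood, TMM factors, two-sided, Benjamini-Hochberg, threshold 0.05) in R 4.3.3, without a block. The common coefficient of variation was 8.51%, and counting error is small beside it except for low counts. limma 3.58.1 on log2(FPKM + 1) and log2(FPKM + 0.1), DESeq2 1.42.0, other scalings and minimums, a replicate block and each library left out were alternatives. Offsets following GC content and transcript length were added after seeing the data. The procedure was tested on simulated data, in which few genes changed and none in relation to GC content. That setting differs from these data, so it checks the code and not the calls here.

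The set, the role and pathway lists and the tests were chosen with earlier results of these data known. Factors named by rule were the 8 largest rises and falls among called factors without overlap, the most abundant of each role, and paralog sets. Others named were chosen after their values were seen. Printed sequences come from RefSeq promoters, which run from 250 bases before to 50 after the start.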

Additional observations from a re-analysis of the deposited data

How the results depend on the processing

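Of the 27 factors that rose, 26 stayed called in the same direction under every setting tried that gave a value, apart from the offsets for GC content and transcript length, the exception being EIF4EBP2. Of the 7 that fell, 4 did so (EIF2A, EIF2AK3, EIF4G3 and EIF5B), and EEF1E1, EIF3A and EIF4E did not. The number that fell was 15 with library totals in place of TMM, 11 with no abundance minimum, and 3 with those offsets. It ranged from 4 to 14 when single libraries were left out. Calls over all genes then ranged from 6151 to 8647, against 7607 with every library in. The median log2 change of all genes was 0.17 without the minimum, over 34122 genes, and −0.078 with library totals, so changes there are read against those shifts. With a minimum of 5 FPKM, 50 of the factors could be tested and 10 of them fell, among them EEF1E1, EIF2A, EIF3A, EIF4G3 and EIF5B of the 7.

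Sign changes under those settings were limited to factors that had not been called. With library totals the log2 change was −0.002 for EIF1AD, −0.013 for EIF1B, −0.052 for EIF3J and −0.007 for EIF4G2. EIF3J was −0.02 without a minimum and also at 5 FPKM, and EEF1A1 was 0.004 with median-of-ratios factors and with DESeq2. Over the libraries left out, EEF1A1 ran from −0.073 to 0.038, EIF1B from −0.012 to 0.121, EIF2AK1 from −0.042 to 0.009, EIF2S3B from −0.132 to 0.061, EIF3C from −0.456 to 0.378, EIF3CL from −0.238 to 1.892, EIF3J from −0.014 to 0.072 and EIF3M from −0.171 to 0.001. With the offsets, 17 factors changed sign. EIF5B became 0.065, EIF3A 0.02 and EIF4E 0.138, and of those not called before, EEF1A1 became 0.119, EIF2AK1 0.088, EIF2B4 −0.004, EIF2S1 0.187, EIF2S2 0.015, EIF2S3 0.143, EIF2S3B 0.084, EIF3E 0.046, EIF3H 0.176, EIF3M 0.323, EIF4A2 0.032, EIF4B 0.022, EIF4H −0.019 and EIF5 0.158. By construction, these offsets remove any change that follows GC content or length. The cause of the other shifts was not tested.

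Same-numbered libraries did not deviate together (correlations of −0.144, −0.0762 and −0.0334), and differently numbered ones gave −0.0688 to 0.11. With 3 libraries per group, such deviations cannot decide whether the numbers pair the libraries. With the replicate block, 27 factors rose and 6 fell, and EEF1E1 was not called (log2 change −0.283). For low genes such as EIF4EBP3, depth limits what can be seen.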
